A study of Homo sapiens with 9 samples.

Results

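The 10 genes described here are regulators and effectors of the integrated stress response: ATF4, ATF3, ATF5, DDIT3, DDIT4, TRIB3, CHAC1, SESN2, CEBPB and PPP1R15A. They were chosen for their roles, with earlier results of these data known, and were looked up by gene name among the 31589 genes listed in the deposited count tables. All 10 were found, and all 10 passed the filter on low counts in every comparison. In human spinal cord organoids (SCOs), TRIB3 and CHAC1 were 2.81-fold and 2.79-fold higher after VPA than after vehicle, DDIT3 and PPP1R15A were lower, and ATF4, SESN2 and TRIB3 were lower when Rapamycin was added to VPA. The rises of TRIB3 and CHAC1 held in each alternative way of testing that was run. The other differences named here did not hold in all of them.

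The integrated stress response begins with kinases that phosphorylate the translation initiation factor eIF2 when amino acids, haem, protein folding in the endoplasmic reticulum or mitochondrial function are disturbed, or when double-stranded RNA is present. Phosphorylated eIF2 lowers general translation while the mRNA of the transcription factor ATF4 is translated more, so that ATF4 protein is not set by its mRNA level alone. ATF4 then works with partner factors on genes for amino acid supply, redox balance and cell death, and also on genes that end the response. ATF4 protein is in addition known to depend on mTOR, the kinase that Rapamycin inhibits.

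Bulk RNA sequencing was performed on 9 libraries of whole SCOs, 3 for each of 3 conditions. All were made from WTC, a human induced pluripotent stem cell line whose genotype is labelled WT. Per the study's text, it had been edited into 3 clones that carry a reporter cassette at the SOX10 gene. A further cassette for lineage tracing was integrated at random. The clones differ at the other SOX10 allele, which in some of them carries insertions or deletions. Organoids of each clone were pooled, and the study describes each heatmap column of these data as a clone. The conditions were vehicle (FGF), VPA (valproic acid, an anti-seizure drug that inhibits histone deacetylases) and VPA + Rapamycin, each for 96 h by the labels. The 9 libraries include no condition with Rapamycin alone, so that each value with Rapamycin is a value in the presence of VPA. The study's text gives a shorter VPA exposure than the labels for some experiments and the same length for others. It gives more than a single VPA concentration, so no dose is given here. Each replicate number carries the same sample code in all 3 conditions, and the labels do not tie these codes to the clones. The p-values measure the spread between these libraries, which by the study's description includes the spread between clones.

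Libraries held 15290299 to 17417338 reads counted on genes, and mitochondrial genes took 5.14% to 7.41% of them. Levels below are counts scaled to a common library size (normalized counts), with the replicates in the order 1, 2, 3. Neural progenitor markers (5 of 5 found in the tables) summed to 27766 to 30691 normalized counts in vehicle libraries, to 33788 to 37134 after VPA and to 29537 to 32226 after VPA + Rapamycin. HES5 was the only one of them called in VPA against vehicle (mean of 5222 against 10172 after VPA), while SOX2 (4485 and 4582), NES (12899 and 13170) and PAX6 (5144 and 5089) were not. The 5 neuron markers summed to 18940 to 33003, 16026 to 17610 and 17296 to 18143, and the 6 spinal HOX genes to 2267 to 4309, 1649 to 1818 and 2027 to 2582. The 6 mesenchymal markers summed to 2267 to 4866, 9186 to 11755 and 4015 to 6104, so that the VPA libraries lay above all others. That sum was carried by the collagens COL1A1 (means of 2059, 4463 and 2569) and COL1A2 (1202, 5277 and 2112), the only 2 of the 6 called in VPA against vehicle. PRRX1 (18.1 and 13.7) and PDGFRA (53.8 and 26.2) had lower means after VPA than after vehicle. Of the neural crest markers, SOX10, the gene with the reporter cassette, had a mean of 281 normalized counts in vehicle, 7.86 after VPA and 36.3 after VPA + Rapamycin. FOXD3 had means of 124, 48.1 and 105, and TFAP2A of 65.5, 10.5 and 33.6. These 3 genes were called lower in VPA against vehicle, and of them SOX10 alone was called lower in VPA + Rapamycin against vehicle. In bulk RNA, fewer cells of a type and less RNA per cell cannot be told apart. Among types not sought in SCOs, CD74 (the only 1 of 3 blood markers in the tables) lay at 91.4 to 166 in vehicle, 249 to 361 after VPA and 178 to 199 once Rapamycin was added. It was called higher in VPA against vehicle and lower in VPA + Rapamycin against VPA. The 3 skeletal muscle markers summed to 3.91 to 5.44, 29.6 to 39.5 and 11.8 to 20.2, and MYOD1 was called higher in VPA against vehicle. COL1A1, COL1A2, CD74 and MYOD1 thus rose in VPA against vehicle, as TRIB3, CHAC1, ATF3 and SESN2 did, and 4 of the 5 neuron markers fell there, as DDIT3 and PPP1R15A did. Their part in these results was not tested. The 3 endothelial markers summed to 51.0 to 109 over all libraries. The 3 pluripotency markers summed to 1614 to 4046, 2243 to 3009 and 1401 to 2443, nearly all of it LIN28A (means of 2533, 2535 and 1749), while POU5F1 and NANOG had means of at most 8.21 in any condition.

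Promoter sequence is shown for the members in which a searched motif lay before the transcription start, because ATF4, ATF3, DDIT3 and CEBPB proteins bind such elements. Windows from 250 bases before to 50 bases after each start were taken from RefSeq (GRCh38.p14), where all 10 genes were matched to 18 windows. Both strands were searched. The core of the C/EBP-ATF element (TGATGNAA), the composite element of a C/EBP and an ATF protein, was found in 3.62% of all 35116 windows. The cAMP response element (TGACGTCA) was found in 1.85% and the AP-1 element (TGANTCA) in 7.71%. Capitals mark the motif, and the letters run 5′ to 3′ on the strand of the gene.
ATF3 C/EBP-ATF core: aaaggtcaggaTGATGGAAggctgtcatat
CHAC1 C/EBP-ATF core: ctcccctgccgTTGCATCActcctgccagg
PPP1R15A cAMP response element: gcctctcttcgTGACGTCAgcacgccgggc
DDIT3 AP-1 element: gcgcgcgcgcaTGACTCAcccacctcctc
ATF5 AP-1 element: ggagagtgctgTGACTCAtgctggactct

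The ATF3 stretch is chr1:212565205-212565234 on the plus strand, with the motif starting 191 bases before the transcription start and outside any gene of GENCODE 29. For CHAC1 it is chr15:40953251-40953280 on the plus strand, 209 bases before a start, where the motif is read on the opposite strand and lies in an exon of a longer CHAC1 transcript. The PPP1R15A stretch, chr19:48872352-48872381 on the plus strand, holds its motif 58 bases before the start, outside any annotated gene. For DDIT3, chr12:57520738-57520766 on the minus strand lies within the DDIT3 gene 238 bases before a start and overlaps an exon of MBD6. For ATF5, chr19:49928707-49928735 on the plus strand lies 188 bases before a start in exons of ATF5 and NUP62. The C/EBP-ATF core was thus in 2 of the 18 member windows, and by gene in 2 of the 10 members, ATF3 and CHAC1, both of which rose with VPA. It was also in 9 of the 22 genes of an ATF4 target list that are in the promoter table. The share over all windows is not a share of genes, which can have several windows, and no share over all genes was counted. TRIB3 and SESN2, which rose as well, held none of these letters in their windows. The matches did not overlap each other. A match is a description of the sequence and no site of binding.

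Per kilobase of exon, the members covered a wide range of levels. ATF4 was the highest with 1616 ± 145 normalized counts per kb in vehicle (SD, n = 3), 1366 ± 69.9 in VPA and 1013 ± 73.9 in VPA + Rapamycin. DDIT4 came next with 874 ± 206 in vehicle, and its range of libraries did not reach that of ATF4 there. Levels that differed by less than the sum of their SDs are called within their spread here. PPP1R15A (142 ± 23.4), SESN2 (138 ± 26.1) and CEBPB (101 ± 26.3) followed and lay within each other's spread. Below them came DDIT3 (68.1 ± 4.26), ATF5 (43.6 ± 10.7), TRIB3 (36.1 ± 3.44), ATF3 (27.5 ± 5.85) and CHAC1 (13.4 ± 3.34), of which ATF5, TRIB3 and ATF3 lay within each other's spread and CHAC1 was the lowest of all. In VPA libraries the order after ATF4 and DDIT4 (793 ± 163) changed, with SESN2 at 205 ± 31.2, CEBPB at 119 ± 6.17, TRIB3 at 102 ± 6.92 and PPP1R15A at 87.0 ± 17.7 normalized counts per kb, of which TRIB3 and PPP1R15A were within their spread. ATF3 (46.4 ± 2.97), CHAC1 (37.8 ± 12.1), ATF5 (36.5 ± 9.02) and DDIT3 (32.3 ± 18.1) followed, each within the spread of the next. With Rapamycin added, DDIT4 (539 ± 264), SESN2 (154 ± 15.4), CEBPB (100.4 ± 10.9), PPP1R15A (95.1 ± 6.29) and TRIB3 (64.3 ± 15.2) came after ATF4, and CEBPB and PPP1R15A were within their spread. ATF3 (32.5 ± 0.93), ATF5 (30.6 ± 7.60), DDIT3 (27.4 ± 10.4) and CHAC1 (17.2 ± 9.10) were the lowest, each within the spread of the next.

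**Figure D1:**
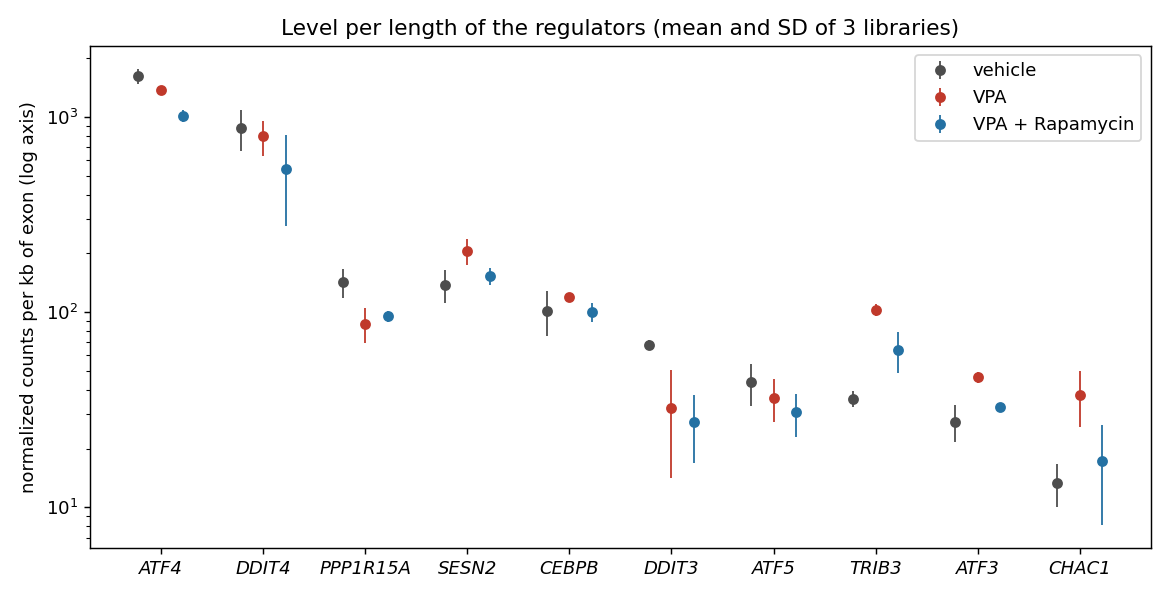
Normalized counts per kb of exon (log axis) for the 10 regulators, as the mean and SD of 3 libraries in vehicle, VPA and VPA + Rapamycin. ATF4 is the highest in each condition, while TRIB3 moves from 36.1 in vehicle to 102 in VPA.

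ATF4 is the transcription factor at the centre of the response (ENSG00000128272, chr22:39519695-39522685, plus strand, GRCh38). Its normalized counts were 4413, 3683 and 4094 in vehicle, 3526, 3230 and 3543 in VPA, and 2384, 2750 and 2509 once Rapamycin was added. The 3 conditions did not overlap, with vehicle the highest and VPA + Rapamycin the lowest. The ATF4 pseudogenes ATF4P3 and ATF4P4 had at most 10 counts in any library.

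Among the partner and target transcription factors, ATF3 is an inducible factor of the same bZIP class (ENSG00000162772, chr1:212565334-212620777, plus strand). It was at 133, 85.9 and 114 normalized counts in vehicle, 199, 175 and 188 in VPA, and 131, 128 and 135 once Rapamycin was added. The VPA libraries were above all others, and the other two conditions overlapped. DDIT3 encodes CHOP, a factor linked to cell death under stress (ENSG00000175197, chr12:57516588-57521737, minus strand). Its normalized counts were 84.0, 88.1 and 95.03 in vehicle, 29.6, 27.5 and 69.4 in VPA, and 20.6, 47.1 and 39.6 once Rapamycin was added. All vehicle libraries were above all treated ones, and VPA replicate 3 stood between vehicle and the other treated libraries. Of the 1307 exonic bases of DDIT3, 413 (31.6%) are also exonic in MARS or MBD6 on the opposite strand, and the use of the strand in counting is not given in the sources used here. The mean counts of MARS (1968) and MBD6 (596) were far above the 55.4 of DDIT3. The DDIT3 count can therefore depend on how reads in the shared bases were assigned, and the direction of this was not tested. MARS differed by 0.10 ± 0.10 (SE) and MBD6 by 0.03 ± 0.12 on the log2 scale in VPA against vehicle.

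ATF5 is a bZIP factor whose translation is controlled like that of ATF4 (ENSG00000169136, chr19:49928702-49933935, plus strand). It was at 161, 127 and 98.1 in vehicle, 97.7, 87.6 and 138 in VPA, and 91.4, 113 and 67.7 once Rapamycin was added, and all conditions overlapped. Of its exonic bases, 21.2% are shared with IL4I1 or NUP62 on the opposite strand, and NUP62 had a mean count of 1939. CEBPB, a C/EBP factor that can pair with ATF4 (ENSG00000172216, chr20:50190734-50192689, plus strand), was at 256, 182 and 157 in vehicle, 247, 223 and 230 in VPA, and 172, 206 and 211 once Rapamycin was added. Its VPA libraries were above those with Rapamycin, while the vehicle libraries spanned both.

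TRIB3 is a pseudokinase induced by ATF4 that binds ATF4 and AKT (ENSG00000101255, chr20:362835-397559, plus strand). It was at 137, 122 and 113 in vehicle, 354, 327 and 374 in VPA, and 218, 274 and 170 once Rapamycin was added. The 3 conditions did not overlap, with VPA the highest and VPA + Rapamycin in between. CHAC1 degrades glutathione (ENSG00000128965, chr15:40952962-40956519, plus strand) and was at 31.3, 19.6 and 31.7 in vehicle, 103, 53.0 and 77.9 in VPA, and 16.7, 35.6 and 54.1 once Rapamycin was added. Its VPA libraries were above all vehicle ones, and VPA + Rapamycin replicate 3 overlapped with them.

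SESN2 and DDIT4 (also known as REDD1) are stress-induced inhibitors of mTORC1. SESN2 (ENSG00000130766, chr1:28259527-28282491, plus strand) was at 580, 423 and 425 in vehicle, 681, 618 and 828 in VPA, and 512, 489 and 590 once Rapamycin was added. The VPA libraries were above all others. DDIT4 (ENSG00000168209, chr10:72273920-72276036, plus strand) was at 2275, 1657 and 1463 in vehicle, 2018, 1459 and 1421 in VPA, and 535, 1617 and 1173 once Rapamycin was added. All conditions overlapped, and VPA + Rapamycin replicate 1 was the lowest of the 9 libraries. PPP1R15A (GADD34) is the phosphatase subunit that reverses eIF2 phosphorylation (ENSG00000087074, chr19:48872392-48876057, plus strand). Its normalized counts were 489, 473 and 357 in vehicle, 291, 207 and 310 in VPA, and 316, 280 and 286 once Rapamycin was added. All vehicle libraries were above all treated ones, and the treated conditions overlapped.

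The comparison of VPA with vehicle asks how these genes respond to the drug. Members moved in both directions, with 4 higher and 2 lower after VPA. TRIB3 rose 2.81-fold (95% interval 2.22 to 3.57, edgeR adjusted p = 8.96e-05) and CHAC1 2.79-fold (1.67 to 4.68, edgeR adjusted p = 0.00719). ATF3 rose 1.67-fold (1.23 to 2.28, edgeR adjusted p = 0.0171) and SESN2 1.48-fold (1.16 to 1.88, edgeR adjusted p = 0.0201). DDIT3 fell by 1.08 ± 0.35 on the log2 scale (SE, edgeR adjusted p = 0.0359) and PPP1R15A fell by 0.72 ± 0.18 (edgeR adjusted p = 0.0122).

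ATF4 did not pass the test, with a log2 fold change of -0.25 (95% interval -0.48 to -0.03, edgeR adjusted p = 0.0785). The interval of DDIT4 was -0.53 to 0.23, that of ATF5 -0.82 to 0.28 and that of CEBPB -0.20 to 0.65 on the log2 scale, none of them past the threshold. In all, 4 of 10 members rose, above the 16.4% of the 17360 genes tested that rose, and 2 of 10 fell, near the 15.7% of all genes that fell. The median log2 fold change of the members was 0.04, beside -0.00 over all genes.

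The calls for TRIB3 and CHAC1 were kept in each of the 12 alternatives run, and the others turned on a single library. Without vehicle replicate 2, the edgeR adjusted p of ATF3 was 0.0688, of SESN2 0.0909, of DDIT3 0.0833 and of PPP1R15A 0.0515, leaving 2 members called. Without VPA replicate 1 it was 0.0657 for ATF3, 0.0529 for SESN2 and 0.133 for DDIT3, leaving 3 members called. Without VPA replicate 2 it was 0.134 for DDIT3 and 0.0629 for PPP1R15A, and without VPA replicate 3 it was 0.0565 for ATF3 and 0.105 for SESN2.

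The comparison of VPA + Rapamycin with VPA asks what the mTOR inhibitor changed in the presence of VPA. ATF4 itself was lower, together with TRIB3 and SESN2, and 9 of the 10 estimates were below 0. ATF4 fell by 0.43 ± 0.08 (SE) on the log2 scale (edgeR adjusted p = 0.00231), TRIB3 fell by 0.67 ± 0.15 (edgeR adjusted p = 0.0118) and SESN2 fell by 0.42 ± 0.11 (edgeR adjusted p = 0.0346). In this comparison 3 of 10 members fell, above the 3.73% of the 17317 genes tested that fell. No member rose by edgeR or by DESeq2, 0 had an unadjusted p under 0.05 with a higher level by either tool, and 3.01% of all genes rose. The median of the members was -0.42, beside 0.00 over all genes.

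CHAC1 had the lowest estimate, -1.13 (95% interval -1.87 to -0.40), with an edgeR adjusted p of 0.0594, and ATF3 was at -0.51 (-0.84 to -0.18) with an edgeR adjusted p of 0.0614. DDIT4 was at -0.55 (-1.04 to -0.07, edgeR adjusted p = 0.164). The intervals of ATF5 (-0.74 to 0.24), CEBPB (-0.55 to 0.05), DDIT3 (-1.07 to 0.58) and PPP1R15A (-0.18 to 0.44) all included 0. With all 9 libraries in 1 fit no member passed, with an edgeR adjusted p of 0.0644 for ATF4, 0.0987 for TRIB3 and 0.235 for SESN2, while 5 members had an unadjusted p under 0.05.

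DDIT4 passed without VPA + Rapamycin replicate 2 (edgeR adjusted p = 0.00902), and its log2 fold change was -0.22 without replicate 1 of that condition, its lowest library. With the replicate number as a block, CHAC1 (0.0155) and DDIT4 (0.00221) passed as well. Without VPA + Rapamycin replicate 3, CHAC1 passed (0.0331) and TRIB3 did not (0.0619). The SESN2 call was lost without VPA replicate 1 (0.0640), VPA replicate 3 (0.164), VPA + Rapamycin replicate 1 (0.0718) or VPA + Rapamycin replicate 2 (0.0910), and that of TRIB3 without VPA replicate 3 (0.0541), which left 1 member called. This comparison and that of VPA against vehicle share the 3 VPA libraries and are not independent of each other.

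Against vehicle, the organoids with VPA + Rapamycin still had more TRIB3 and less DDIT3 and PPP1R15A, and they had less ATF4. TRIB3 was 1.77-fold higher (95% interval 1.29 to 2.42, edgeR adjusted p = 0.0202). DDIT3 fell by 1.32 ± 0.32 on the log2 scale (edgeR adjusted p = 0.0160), ATF4 fell by 0.68 ± 0.11 (edgeR adjusted p = 0.00269) and PPP1R15A fell by 0.59 ± 0.16 (edgeR adjusted p = 0.0237). Thus 1 of 10 members rose, near the 9.81% of the 17383 genes tested that rose, and 3 of 10 fell, above the 9.22% of all genes that fell. The median of the members was -0.27, beside -0.00 over all genes.

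Of the 4 members that rose with VPA alone, 3 had an interval against vehicle that included 0 once Rapamycin was added. On the log2 scale it was -0.24 to 0.70 for ATF3, -0.20 to 0.49 for SESN2 and -0.63 to 1.33 for CHAC1. DDIT4 was at -0.71 (-1.39 to -0.03, edgeR adjusted p = 0.134) and ATF5 at -0.52 (-1.08 to 0.05), while CEBPB was at -0.02 (-0.48 to 0.43). With the replicate number as a block, DDIT4 passed (edgeR adjusted p = 0.0306). ATF4 kept its call in each of the 12 alternatives. The TRIB3 call was lost without vehicle replicate 2 (edgeR adjusted p = 0.0689), VPA + Rapamycin replicate 1 (0.0685) or VPA + Rapamycin replicate 2 (0.0993). That of PPP1R15A was lost without vehicle replicate 2 (0.0935), or without VPA + Rapamycin replicate 1 (0.0680), 2 (0.0993) or 3 (0.0911), and that of DDIT3 without VPA + Rapamycin replicate 1 (0.0547), which left 1 member called by edgeR.

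The machinery that acts on eIF2 was examined with 21 genes, among them the eIF2 kinases, the eIF2 and eIF2B subunits and catalytic subunits of the phosphatase. In VPA against vehicle 4 of the 21 rose, near the 16.4% of all genes tested that rose, and 0 fell, beside 15.7% of all genes, where 2 of the list had a lower level at an unadjusted p under 0.05 by edgeR and by DESeq2. The median log2 fold change was 0.05. OMA1, the mitochondrial protease that starts the signal from mitochondria, rose by 1.02 ± 0.19 (edgeR adjusted p = 0.00246), from 74.2, 89.2 and 87.9 to 182, 173 and 160 normalized counts. DNAJC3, which inhibits eIF2 kinases, rose by 0.43 ± 0.13 (edgeR adjusted p = 0.0308) and PPP1CA, a catalytic subunit that PPP1R15A binds, by 0.32 ± 0.11 (edgeR adjusted p = 0.0419). DNAJC3 lost its call without vehicle replicate 2 (0.0981), VPA replicate 2 (0.141) or VPA replicate 3 (0.1001), and PPP1CA without any of vehicle replicates 2 (0.103) and 3 (0.0590) and VPA replicates 1 (0.0804), 2 (0.156) and 3 (0.133), or with the replicate block (0.0934). In VPA + Rapamycin against VPA, EIF2AK4 (GCN2, the kinase that senses amino acid shortage) was the only 1 of the 21 past the threshold by edgeR, beside 2 by DESeq2, and fell by 0.30 ± 0.08 (edgeR adjusted p = 0.0315), where 3.73% of all genes fell. Its call was lost with all 9 libraries in 1 fit (0.224), where 0 of the 21 passed by edgeR and 1 had an unadjusted p under 0.05. It was also lost without VPA replicates 1 (0.0939), 2 (0.146) or 3 (0.0529), or without VPA + Rapamycin replicates 2 (0.0883) or 3 (0.0597). The 4 calls of VPA against vehicle became 1 without vehicle replicate 2, VPA replicate 2 or VPA replicate 3, 2 without VPA replicate 1 and 2 with the replicate block. Against vehicle, OMA1 alone passed under VPA + Rapamycin (0.93 ± 0.20, edgeR adjusted p = 0.0116, and 0.0605 without VPA + Rapamycin replicate 1, where none passed). There 5 passed without vehicle replicate 1, 5 with all 9 libraries in 1 fit and 3 without vehicle replicate 3.

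Of 29 known ATF4 target genes outside the members, 27 were in the tables. In VPA against vehicle 9 of the 27 rose, above the 16.4% of all genes that rose, and 4 fell, near the 15.7% of all genes that fell, with a median log2 fold change of 0.22. The tryptophanyl-tRNA synthetase WARS rose by 0.69 ± 0.11 (edgeR adjusted p = 0.000835), the mitochondrial serine hydroxymethyltransferase SHMT2 by 0.85 ± 0.15 (edgeR adjusted p = 0.00189) and the amino acid transporter SLC7A5 by 0.79 ± 0.16 (edgeR adjusted p = 0.00337). The lipoprotein receptor VLDLR fell by 1.15 ± 0.13 (edgeR adjusted p = 0.000125), KLHL24 fell by 1.04 ± 0.18 (edgeR adjusted p = 0.00140) and the stress hormone GDF15 fell by 1.61 ± 0.29 (edgeR adjusted p = 0.00191). GDF15 was at 145, 107 and 108 normalized counts in vehicle and at 37.5, 27.5 and 53.5 in VPA. These 6 calls were kept in each alternative run.

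In VPA + Rapamycin against VPA, 9 of the 27 target genes fell and 1 rose, beside 3.73% and 3.01% of all genes, and the median was -0.22. SHMT2 fell by 0.64 ± 0.09 (edgeR adjusted p = 0.000407), PHGDH, the first enzyme of serine synthesis, fell by 0.49 ± 0.08 (edgeR adjusted p = 0.00125) and SLC7A5 fell by 0.55 ± 0.10 (edgeR adjusted p = 0.00234). SHMT2 was at 1248, 952 and 799 normalized counts in vehicle, 1968, 1660 and 1799 after VPA, and 1111, 1323 and 1045 with Rapamycin added. KLHL24 went the other way and rose by 0.71 ± 0.08 (edgeR adjusted p = 2.66e-05). None of the 27 passed when all 9 libraries were fitted together by edgeR, where 13 had an unadjusted p under 0.05, and 6 passed without VPA replicate 1.

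Under VPA + Rapamycin against vehicle, 2 of the 27 target genes rose and 3 fell, both near the shares over all genes (9.81% and 9.22%), with a median of -0.16. WARS stayed 0.65 ± 0.11 higher on the log2 scale (edgeR adjusted p = 0.00291) and the transporter SLC1A4 0.69 ± 0.15 higher (edgeR adjusted p = 0.0128). GDF15 fell by 2.19 ± 0.36 (edgeR adjusted p = 0.00292), VLDLR fell by 0.79 ± 0.14 (edgeR adjusted p = 0.00394) and the cysteinyl-tRNA synthetase CARS fell by 0.55 ± 0.14 (edgeR adjusted p = 0.0224). The count depended on single libraries, with 11 called without vehicle replicate 1 and 3 without VPA + Rapamycin replicate 2. The SLC1A4 call was lost without VPA + Rapamycin replicates 2 (0.0572) or 3 (0.0534), and that of CARS without replicates 1 (0.0905), 2 (0.0840) or 3 (0.0807) of that condition.

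**Figure D2:**
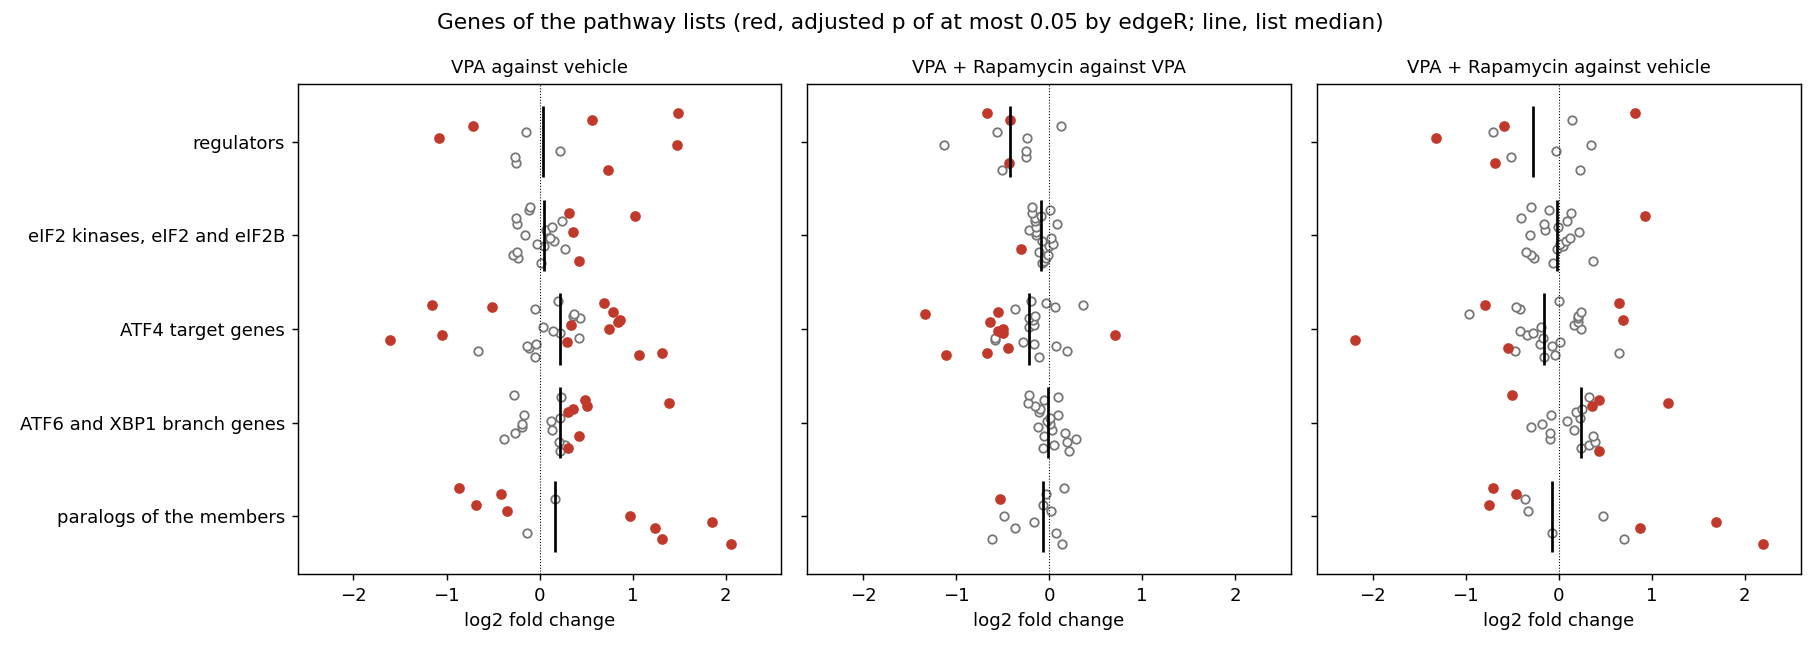
Log2 fold changes of the genes of 5 lists in the 3 comparisons, with red points for an edgeR adjusted p of at most 0.05, open points above it and a line at the median of each list. In VPA + Rapamycin against VPA, the ATF4 target genes have 9 red points below 0 and 1 above, and the ATF6 and XBP1 branch genes have none.

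The ATF6 and XBP1 branches of the unfolded protein response share its trigger in the endoplasmic reticulum but do not pass through eIF2. Of 20 genes, 7 rose and 0 fell in VPA against vehicle, beside 16.4% and 15.7% of all genes, where 1 had a lower level at an unadjusted p under 0.05 by edgeR and by DESeq2, and the median was 0.22. DNAJC3, which rose, is counted both here and among the genes that act on eIF2. SDF2L1, a chaperone partner in the endoplasmic reticulum, rose by 1.40 ± 0.19 (edgeR adjusted p = 0.000438), the disulfide isomerase PDIA6 by 0.51 ± 0.09 (edgeR adjusted p = 0.00159) and the translocon subunit SEC61B by 0.49 ± 0.13 (edgeR adjusted p = 0.0128). Of the 20 estimates, 14 were above 0 and 6 below. HSPA5 (0.12 ± 0.11), HSP90B1 (-0.19 ± 0.10), HERPUD1 (-0.18 ± 0.15) and DNAJB9 (-0.38 ± 0.19) did not pass the threshold. The count was 2 without vehicle replicate 2, 4 without VPA replicate 1 and 3 without VPA replicate 2 or 3, and SEC61B lost its call without vehicle replicate 2 (0.0556) or VPA replicate 3 (0.0630). None of the 20 passed in VPA + Rapamycin against VPA by edgeR or by DESeq2, where 4 had an unadjusted p under 0.05 by either tool, 2 in each direction, and the median was -0.01. Against vehicle, 4 rose and 1 fell under VPA + Rapamycin, beside 9.81% and 9.22% of all genes, with a median of 0.24. SDF2L1 was 1.17 ± 0.22 higher (edgeR adjusted p = 0.00547), PDIA6 0.36 ± 0.10 (edgeR adjusted p = 0.0242) and ATF6 0.43 ± 0.12 (edgeR adjusted p = 0.0321), and XBP1 fell by 0.50 ± 0.14 (edgeR adjusted p = 0.0274). SDF2L1 alone of these kept its call without each library, and the count fell to 1 without any of the VPA + Rapamycin replicates and to 2 without vehicle replicate 2.

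Close relatives of a member moved with it in some cases and the other way in others. Of 12 paralogs listed, 11 passed the filter on low counts, and in VPA against vehicle 5 rose and 4 fell, beside 16.4% and 15.7% of all genes. TRIB2 and TRIB1, relatives of TRIB3, fell by 0.86 ± 0.10 (edgeR adjusted p = 0.000124) and 0.42 ± 0.12 (edgeR adjusted p = 0.0202), where TRIB3 rose. TRIB2 was at 3775, 3543 and 3870 normalized counts in vehicle and at 2163, 1977 and 2068 in VPA. SESN1, a relative of SESN2, fell by 0.68 ± 0.13 (edgeR adjusted p = 0.00298), where SESN2 rose. CHAC2 rose by 1.24 ± 0.20 (edgeR adjusted p = 0.00119), as CHAC1 did, and DDIT4L rose by 1.86 ± 0.48 (edgeR adjusted p = 0.0133), where DDIT4 had an estimate of -0.15. CEBPA, a relative of CEBPB, rose by 2.05 ± 0.54 (edgeR adjusted p = 0.0145) from 12.7, 3.26 and 5.11 to 19.7, 40.8 and 30.0 normalized counts. PPP1R15B fell by 0.35 ± 0.12 (edgeR adjusted p = 0.0457), as PPP1R15A did. JDP2, a relative of ATF3, rose by 0.97 ± 0.28 (edgeR adjusted p = 0.0215), as ATF3 did. How the calls of PPP1R15B and JDP2 fared under the alternatives is not given here. The calls of TRIB2, SESN1 and CHAC2 were kept without each library. TRIB1 lost its call without vehicle replicate 2 (0.0506) or VPA replicates 1 (0.0709), 2 (0.0897) or 3 (0.0826), with no filter on low counts (0.0510) or with the replicate block (0.0606), DDIT4L without VPA replicate 2 (0.0687) and CEBPA without vehicle replicate 2 (0.0594) or VPA replicates 2 (0.0770) or 3 (0.0512). The count was 5 without vehicle replicate 2, VPA replicate 1 or VPA replicate 3 and 4 without VPA replicate 2.

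In VPA + Rapamycin against VPA, SESN3 was the only paralog past the threshold and fell by 0.53 ± 0.07 (edgeR adjusted p = 0.000298), from 5713, 5359 and 5426 to 3694, 3574 and 4125 normalized counts. With all 9 libraries in 1 fit its edgeR adjusted p was 0.0785, and 0 paralogs passed there, with 1 at an unadjusted p under 0.05, beside 1 called by DESeq2 on the pair alone. Against vehicle, 3 paralogs rose and 3 fell under VPA + Rapamycin, beside 9.81% and 9.22% of all genes. They were CHAC2 (0.87 ± 0.21, edgeR adjusted p = 0.0158), CEBPA (2.20 ± 0.53, 0.0163) and DDIT4L (1.69 ± 0.51, 0.0402) above vehicle and TRIB2 (-0.70 ± 0.10, 0.00128), SESN1 (-0.74 ± 0.13, 0.00436) and TRIB1 (-0.46 ± 0.13, 0.0274) below it. TRIB2 and SESN1 kept this call without each library. The count was 2 without vehicle replicate 2 or VPA + Rapamycin replicate 3 and 3 without VPA + Rapamycin replicates 1 or 2.

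For ATF4, ATF3 and DDIT3, the genes with the most similar pattern were sought among 13381 genes over the 9 libraries, by the root mean square difference of log2 levels centred on each gene's mean. Nearest to ATF4 were TNFRSF10D, a decoy receptor of the death ligand TRAIL (0.0858), QPRT, an enzyme of NAD synthesis (0.0900), and CARS (0.114), where the spread of ATF4 about its own mean was 0.291. Nearest to ATF3 were HSPA12B (0.0890), GAS1 (0.1001) and CDK2AP2 (0.107), beside a spread of 0.356. Nearest to DDIT3 were BTBD19 (0.260), HIST1H3E (0.289) and AC027290.2 (0.301), beside a spread of 0.755. TNFRSF10D was at 959, 809 and 762 normalized counts in vehicle, 776, 682 and 750 after VPA, and 543, 556 and 568 with Rapamycin added, with all libraries with Rapamycin below all others, as for ATF4. HSPA12B was at 101, 65.3 and 81.7 in vehicle, 152, 150 and 155 after VPA, and 93.3, 91.4 and 109 with Rapamycin added. BTBD19 was at 111, 101 and 118 in vehicle, 43.4, 41.8 and 75.1 after VPA, and 42.2, 75.0 and 64.6 with Rapamycin added. As for DDIT3, replicate 3 was the highest of its VPA libraries.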

How the data were processed

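Poly-A RNA of 9 SCO libraries was sequenced by the authors. The submitters' processing notes name HISAT2 2.0.5 and featureCounts 1.5.0-p3, and the use of the strand is not given in the sources used here. The authors deposited read counts per gene, without normalization, in 1 table for each pair of conditions, with coordinates on GRCh38 that match GENCODE 29 for all 10 members. Counts of genes shared between tables were identical. The tables also hold 18 columns of FPKM, 18 of the authors' normalized counts, and the authors' log2 fold changes and p-values, none of which was used here.

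Each pair was compared within its own table in R 4.3.3 with edgeR 4.0.16 (TMM, filterByExpr defaults, quasi-likelihood test, Benjamini-Hochberg adjustment over all genes tested, threshold 0.05, no block). SE and intervals (95%) come from the estimate and its F statistic. Normalized counts use TMM over the 9 libraries. Alternatives were relative log expression factors, library totals alone, no filter on low counts, DESeq2 1.42.0, all 9 libraries in 1 fit, the replicate number as a block, and leaving out each library. The test was also run on simulated counts with the same relative spread for all genes and known changes, larger than many reported here. That run does not check the calls of the members.

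Named genes were the 10 members, up to 3 genes per direction with the smallest adjusted p from each list and comparison, and the 3 genes nearest to ATF4, ATF3 and DDIT3 with a mean of at least 50 normalized counts. The overlapping genes MARS, MBD6, NUP62 and IL4I1, and the cell type markers named singly, were named after their values were seen. So were the paralogs PPP1R15B and JDP2, and HSPA5, HSP90B1, HERPUD1 and DNAJB9 of the ATF6 and XBP1 branches. The members and lists were chosen with earlier results of these data known. The lists overlap: DNAJC3 was in the eIF2 list and in that of the ATF6 and XBP1 branches. CEBPG was in the ATF4 target list and in the paralog list. CHAC1 and DDIT3 had the lowest mean counts of the members. A gene of the neural crest list, and the sum of that list, are not reported here.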

Additional observations from a re-analysis of the deposited data

How the results depend on the processing

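Of 360 values of the members under the alternatives, 316 kept direction and side of the threshold, 28 lost and 8 gained the call and 8 changed sign. Members called numbered 2 to 6 for VPA against vehicle, 1 to 3 for VPA + Rapamycin against VPA and 1 to 4 for VPA + Rapamycin against vehicle when each library was left out. For VPA + Rapamycin against VPA, 5 members passed with no filter on low counts (DDIT4 at an edgeR adjusted p of 2.27e-08 and CHAC1 at 0.00256 were gained) and 0 with all 9 libraries in 1 fit by edgeR (5 at an unadjusted p under 0.05). DESeq2 on the pair alone called 3. In the fit of all 9 libraries, over all genes 44 rose and 69 fell instead of 522 and 646. The cause was not tested. DDIT4 also passed against vehicle with no filter (0.00187). Scaling by library totals alone moved the median of all genes by at most 0.06 and gave 3144 raised and 2434 lowered genes for VPA against vehicle (2840 and 2728 with TMM), and 2060 and 1255 for VPA + Rapamycin against vehicle (1705 and 1602).

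Same-numbered libraries share a sample code across the conditions, and the labels do not say what the code marks. Their deviations from the condition means correlated at -0.0595 to 0.159, positive for all 3 numbers in VPA + Rapamycin against vehicle, so that the values leave the pairing undecided and the block was run as an alternative. With the replicate block, 5 members passed for VPA + Rapamycin against VPA (CHAC1 at 0.0155 and DDIT4 at 0.00221 were gained by edgeR), and DDIT4 passed against vehicle (0.0306). The block moved no other call of a member.

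Signs turned when single libraries were left out. Over all 12 alternatives, the log2 fold change in VPA against vehicle ranged from -0.323 to 0.0556 for DDIT4 and from -0.0463 to 0.0795 for MBD6. In VPA + Rapamycin against VPA it ranged from -0.495 to 0.326 for DDIT3 and from -0.0293 to 0.242 for PPP1R15A. In VPA + Rapamycin against vehicle it ranged from -0.0792 to 0.692 for CHAC1 and from -0.165 to 0.199 for CEBPB. The sign of CEBPB also turned with library totals alone (0.0333). The libraries were vehicle replicate 1 for DDIT4, vehicle replicate 3 and VPA replicate 3 for MBD6, VPA replicate 3 and VPA + Rapamycin replicate 1 for DDIT3, VPA replicate 2 for PPP1R15A, VPA + Rapamycin replicate 3 for CHAC1, and vehicle replicate 1 and VPA + Rapamycin replicate 1 for CEBPB. None of these values passed the threshold.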
